A study of Homo sapiens with 4 samples.

Results

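The genes of glycolysis and of the hypoxia response were examined by RNA-seq after depletion of topoisomerase 2B. The set was a written list of 37 genes (VEGFA included), matched to the deposited count table by gene symbol, out of 60725 genes in that table. A gene was tested when it had at least 10 counts in at least 2 libraries, which 34 of the 37 genes and 15356 of all genes met. The cells were hTERT RPE1, a line of human retinal pigment epithelium made immortal by telomerase, in a version that also expresses the SunTag system, a tool for imaging or recruiting proteins. Control cells received Silencer Select Negative Control No. 2 siRNA and knockdown cells received the Dharmacon pool against TOP2B, each at 10 nM in a pair of transfections 48 h apart. RNA was taken 72 h after the second transfection, on day 5, from 2 biological replicates per condition. All groups were of 1 cell line at 1 time point, and both conditions carried the SunTag system.

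Glycolysis splits glucose into pyruvate. A preparatory phase spends ATP to phosphorylate and cleave the sugar, and a payoff phase recovers ATP and ends with pyruvate kinase. Lactate dehydrogenase then turns pyruvate into lactate, whereas pyruvate dehydrogenase, which PDK kinases switch off, sends it to the mitochondria. When oxygen is short, the alpha subunits of the hypoxia-inducible factors (HIF) escape the prolyl hydroxylases that mark them for degradation and raise the transcription of glycolytic genes, of the angiogenic factor VEGFA and of many others. In the eye, the retinal pigment epithelium passes glucose to the photoreceptors and secretes VEGFA towards the choroidal vessels.

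Libraries held between 20310259 and 23887013 counts, so that 1 CPM (counts scaled to library size, here by the TMM method) rested on 20.2 to 23.9 counts. TOP2B itself fell from 155 and 144 CPM in the control replicates to 15.3 and 13.3 CPM in the knockdown replicates (log2(fold change) -3.38, SE 0.14, adjusted p 5.1e-06 by edgeR), with 9.58% of the control level left. Of 11 markers of the retinal pigment epithelium 7 passed the count filter. Among them, MITF was at 38.5 and 38.2 CPM in control and 42.6 and 44.8 CPM in knockdown libraries. OTX2 was at 11.9 and 11.2 CPM against 13.4 and 12.5 CPM. The keratins ran the other way, with KRT8 at 1102 and 1347 CPM in control against 854 and 1074 CPM in knockdown libraries. KRT18 was at 355 and 424 CPM against 266 and 329 CPM. Of the 7 markers, 5 had non-overlapping higher and 2 non-overlapping lower values in knockdown cells, against 27.7% and 26.6% of all genes tested. None of the 7 had an adjusted p below 0.05 by edgeR. RPE65, TYR and TTR had 0 counts in every library, and RLBP1 had at most 1. Of the markers of other cell types, none of 5 leukocyte markers and 2 of 6 fibroblast markers were tested. The endothelial markers tested (4 of 5) summed to 25.6 and 18.6 CPM in control and 17.7 and 14.5 CPM in knockdown cells, nearly all of it TIE1, while the endothelial cadherin CDH5 had at most 1 count in any library. Among 18 proliferation genes, 12 (66.7%) were called higher and none lower by edgeR at an adjusted p below 0.05. Of all genes tested, 6.66% were called higher and 4.18% lower. The median log2(fold change) of the 18 genes was 0.65. They were chosen after their values in these data were seen, so their share is a description and not a test. The 12 were PCNA, MCM2 to MCM7, CCNE2, CDK1, RRM2, TYMS and E2F1. MKI67, TOP2A, CCNA2, CCNB1, BUB1 and AURKA were not called, though all 18 had a positive log2(fold change). The summed level of the 18 genes was 2808 and 2660 CPM in control against 3999.7 and 3748 CPM in knockdown cells. By DNA staining, the study found cell cycle progression unaltered after TOP2B depletion. Whether the shift of these genes had a part in the values of the metabolic genes was not tested. In bulk RNA, fewer cells that express a gene and less RNA of it per cell cannot be told apart.

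To ask which of the glycolysis and hypoxia genes responded to TOP2B depletion, knockdown and control libraries were compared with edgeR (quasi-likelihood test, p adjusted by Benjamini-Hochberg over all genes tested). Genes with an adjusted p below 0.05 are referred to as called. PFKL and VEGFA were called higher, and SLC2A3, EPAS1, P4HA1 and HK2 were called lower. These are 5.88% and 11.8% of the 34 genes tested, against 6.66% called higher and 4.18% called lower among all 15356 genes. The share called higher was thus near the background, and the larger share called lower rests on 4 genes. At an unadjusted p below 0.05 the shares were 26.5% of these genes and 26.3% of all genes. The median log2(fold change) was -0.12, against -0.0029 for all genes tested, with 8 positive and 26 negative values. Both knockdown libraries lay above both control libraries for 6 genes (17.6%) and below them for 17 genes (50%). For all genes tested, the groups did not overlap in 27.7% with knockdown higher and in 26.6% with knockdown lower.

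**Figure D1:**
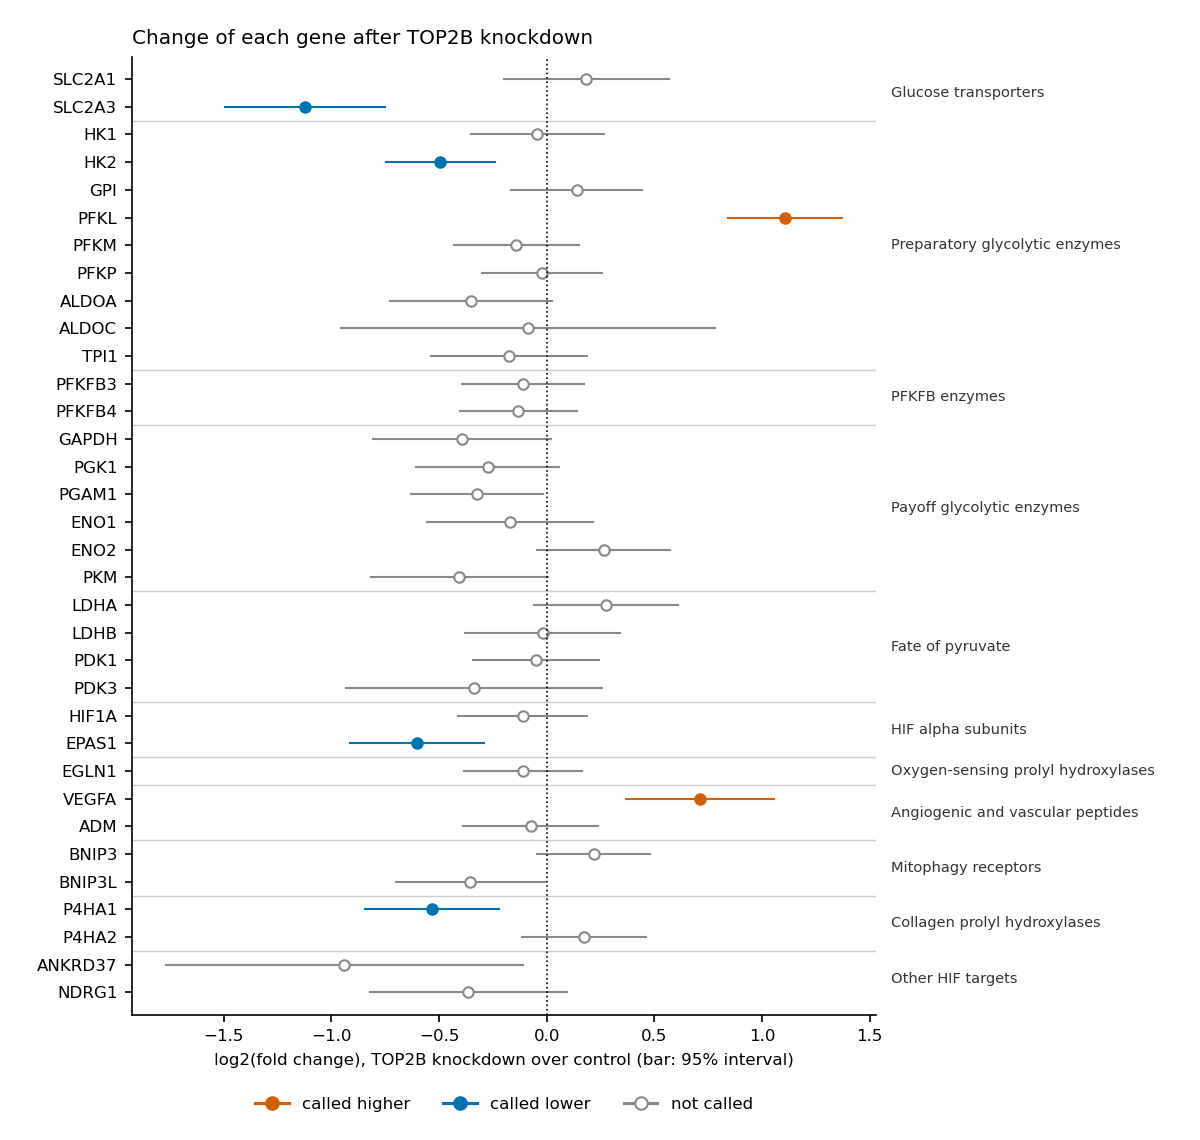
Log2(fold change) of the 34 tested genes, TOP2B knockdown over control, from edgeR with 2 libraries per group, with 95% intervals as bars and genes ordered by role. Filled orange points are the 2 genes called higher, filled blue points the 4 called lower, and open grey points the 28 not called.

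**Figure D2:**
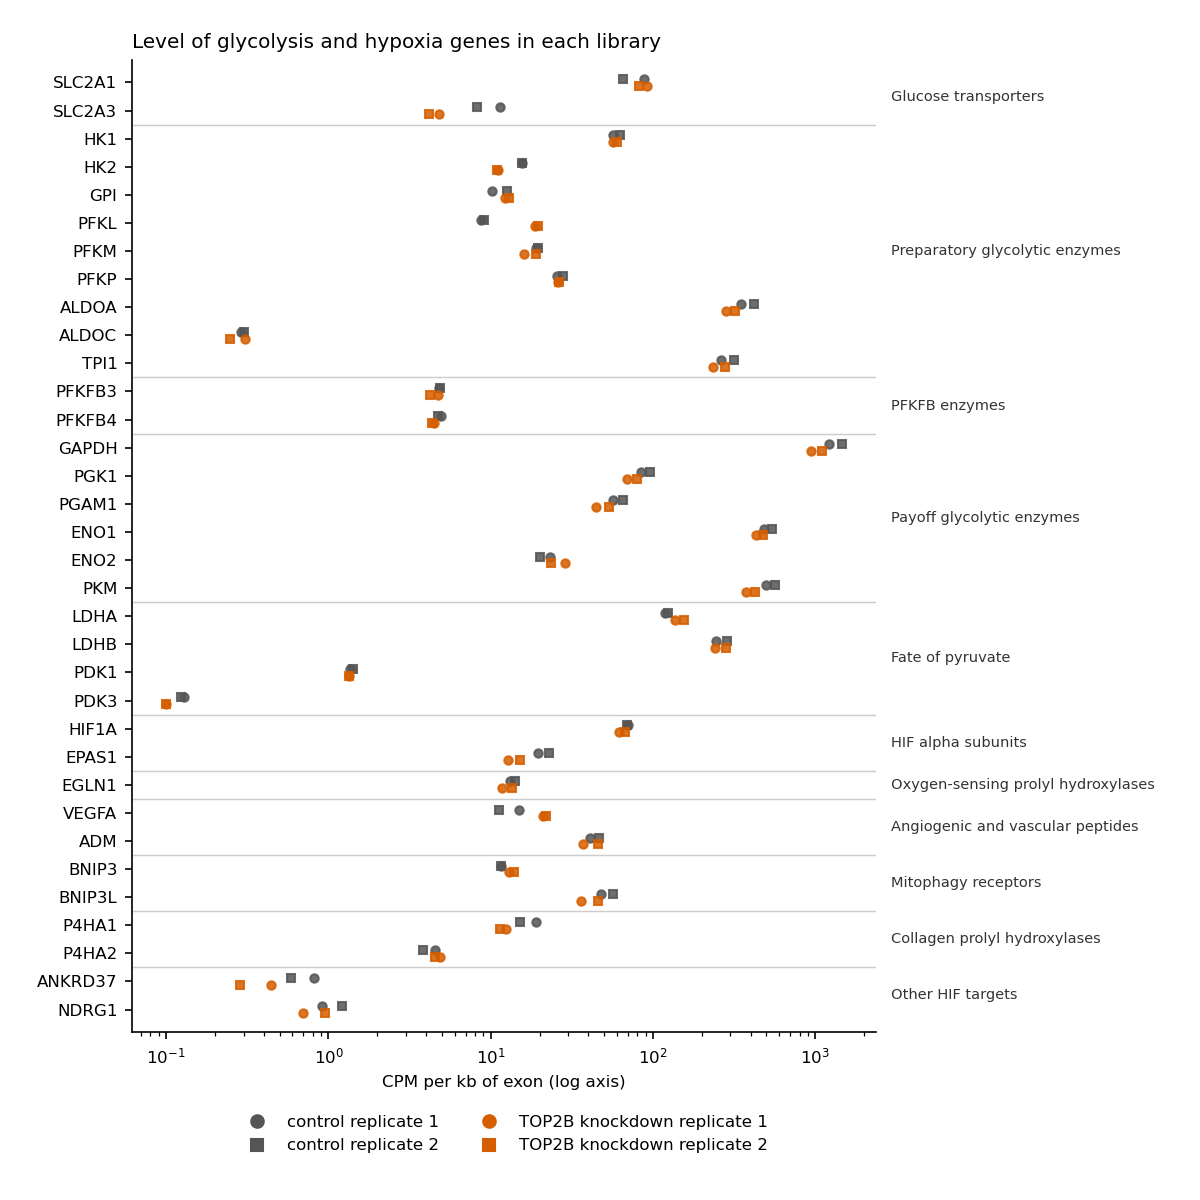
Level of the 34 tested genes in each of the 4 libraries, as CPM per kb of exon on a log axis, with control in grey and TOP2B knockdown in orange. Levels range from about that of PDK3 (0.126 CPM per kb in control) to GAPDH (1338 CPM per kb), and the group means lie furthest apart for SLC2A3, PFKL and ANKRD37, the last of which is rare and imprecise.

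Levels were also expressed per kb of exon, counting the exons of all annotated transcripts of a gene. Genes with many annotated exons thereby get lower values, so that different genes can be compared only roughly. By this measure, the most abundant of these transcripts in control cells were GAPDH (mean 1338 CPM per kb), PKM (531), ENO1 (513), ALDOA (385), TPI1 (289), LDHB (265) and LDHA (120). HIF1A was at 69.8, VEGFA at 13.1 and NDRG1 at 1.06 CPM per kb. ALDOC and PDK3 were the least abundant genes tested by this measure, at 0.295 and 0.126 CPM per kb. Without the length scaling, PDK3 (mean 2.20 CPM in control) lay above ANKRD37 (1.58) and ALDOC (0.771). ALDOC passed the filter with 18 and 18 counts in control and 17 and 13 counts in knockdown libraries. The 3 genes outside it were EGLN3 (0, 0, 1 and 0 counts in the 2 control and then the 2 knockdown libraries), CA9 (5, 1, 2 and 0 counts) and CA12 (3, 2, 0 and 1 counts). EGLN3 is an oxygen-sensing prolyl hydroxylase, and CA9 and CA12 are carbonic anhydrases of the cell surface. Changes in these 3 genes were not detectable at this depth, at which 3 counts correspond to 0.125 to 0.149 CPM.

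Glucose enters the cell through the transporters SLC2A1 (GLUT1) and SLC2A3 (GLUT3). SLC2A3 (ENSG00000059804, chr12:7919230-8019007 of GRCh38, minus strand) was at 82.5 and 59.3 CPM in control and at 35.0 and 30.2 CPM in knockdown libraries. Both knockdown libraries lay well below the lower control library, although the control libraries differed from each other. The log2(fold change) was -1.12 (SE 0.17, 95% interval -1.49 to -0.75, adjusted p 0.0033 by edgeR), or 2.18-fold lower. SLC2A1 was far more abundant, at 578 and 430.3 CPM in control and 607 and 539 CPM in knockdown libraries. Its groups overlapped, with a log2(fold change) of 0.18 (SE 0.17, 95% interval -0.20 to 0.57, adjusted p 0.55). Of the CPM per kb that these transporters held together, SLC2A3 took 11.5% and 11.2% in the control replicates and 5.00% and 4.85% in the knockdown replicates.

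Hexokinases trap glucose in the cell by phosphorylating it. HK2 (ENSG00000159399, chr2:74834127-74893359, plus strand), the inducible form, had 91.6 and 91.8 CPM in control and 65.9 and 64.2 CPM in knockdown libraries. The libraries of each group nearly coincided and the groups were clearly apart. This gave a log2(fold change) of -0.50 (SE 0.11, 95% interval -0.75 to -0.24, adjusted p 0.023). HK1, the form found in most tissues, had 392 and 432 CPM in control and 389 and 411 CPM in knockdown libraries, with overlapping groups and a log2(fold change) of -0.043. HK2 made up 21.3% and 19.8% of the hexokinase CPM per kb in control cells and 16.4% and 15.4% after TOP2B depletion. GPI, which converts the glucose phosphate into its fructose form, had a log2(fold change) of 0.14 and was not called.

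Phosphofructokinase commits the sugar to glycolysis, and its subunits come from 3 genes named for liver (PFKL), muscle (PFKM) and platelet (PFKP). PFKL (ENSG00000141959, chr21:44300051-44327376, plus strand) rose from 77.7 and 80.7 CPM in the control replicates to 167 and 175 CPM in the knockdown replicates. Both knockdown libraries were above 2 times the control level, and replicates of a group differed by little. Its log2(fold change) was 1.11 (SE 0.12, 95% interval 0.84 to 1.37, adjusted p 0.00083 by edgeR), or 2.15-fold higher. PFKM had 138 and 142 CPM in control and 116 and 138 CPM in knockdown libraries. PFKP had 199 and 215 CPM in control and 203 and 206 CPM in knockdown libraries. Neither was called, at a log2(fold change) of -0.14 for PFKM and -0.021 for PFKP. In CPM per kb, PFKL was the least abundant subunit in control cells, with 16.3% and 16.0% of the family's sum. After TOP2B depletion it held 30.7% and 30.1%, level with or above PFKM at 26.3% and 29.3%, while PFKP stayed the most abundant at 43.0% and 40.7%. The sum of the family was 53.3 and 56.3 CPM per kb in control and 60.7 and 65.0 CPM per kb in knockdown cells.

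PFKFB3 and PFKFB4 make and break down the sugar phosphate that activates phosphofructokinase. PFKFB3 had 29.2 and 29.7 CPM in control and 28.9 and 25.6 CPM in knockdown libraries, and PFKFB4 had 29.9 and 29.0 CPM in control and 27.2 and 26.5 CPM in knockdown libraries. In both genes the knockdown libraries were the lower ones by a small margin, with log2(fold change) of -0.11 and -0.13. Neither was called by edgeR or DESeq2, and neither had an unadjusted p below 0.05.

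The lower preparatory enzymes cleave the sugar (aldolases ALDOA and ALDOC) and interconvert the products (TPI1). ALDOA had 1339.7 and 1609.8 CPM in control and 1081 and 1232 CPM in knockdown libraries, so that the groups did not overlap. TPI1 had 710 and 851 CPM in control and 637 and 748 CPM in knockdown libraries, with overlap. None of these was called, at a log2(fold change) of -0.35 for ALDOA, -0.17 for TPI1 and -0.087 for the rare ALDOC. Other genes overlap 13.6% of the exon bases of ALDOA and 11.3% of those of ALDOC. The columns of the count table are tagged as stranded and paired-end, whereas the labels and methods give single-end reads, and no source states whether strand was used in counting, so that reads in such overlaps may or may not be assigned to the right gene.

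In the payoff phase, GAPDH oxidizes the triose, PGK1 makes the first ATP, PGAM1 and the enolases ENO1 and ENO2 rearrange and dehydrate the product, and PKM makes the second ATP. None of these 6 genes was called by edgeR. At an unadjusted p below 0.05 there was 1 (PGAM1, lower), and the Wald test of DESeq2 called 1 (PKM, lower). PKM had 4259 and 4851 CPM in control and 3211 and 3667 CPM in knockdown libraries. GAPDH had 2903 and 3509 CPM in control and 2248 and 2636 CPM in knockdown libraries. For each of these abundant genes the groups did not overlap, while the replicates within a group also differed. For PKM the log2(fold change) was -0.41 (SE 0.18, adjusted p 0.20), and the DESeq2 test gave it -0.42 (adjusted p 0.035). GAPDH followed at -0.39 (SE 0.19, adjusted p 0.21). Other annotated genes overlap 17.6% of the exon bases of GAPDH.

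PGAM1 (145 and 167 CPM in control, 114 and 135 CPM in knockdown) had a log2(fold change) of -0.32, PGK1 (459 and 522 CPM against 376 and 435 CPM) of -0.27 and ENO1 (2510.0 and 2840.4 CPM against 2258 and 2496 CPM) of -0.17. ENO2, the enolase named for neurons, ran the other way with 99.5 and 86.4 CPM in control and 123 and 100.4 CPM in knockdown libraries. Its log2(fold change) was 0.26 and it was not called. Thus 5 payoff enzymes had non-overlapping lower values and 1 had non-overlapping higher values without passing the test, where 26.6% and 27.7% of all genes tested were also free of overlap. The CPM of the 6 genes summed to 10375 and 11975 in control and to 8330.3 and 9469 in knockdown libraries, without overlap. Over the 15 enzymes from hexokinase to pyruvate kinase the sums were 13433 and 15533 CPM in control and 11119.8 and 12582 CPM in knockdown libraries, with 1 gene called in each direction.

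LDHA and LDHB supply the subunits of lactate dehydrogenase. LDHA had 710 and 740 CPM in control and 826 and 931 CPM in knockdown libraries. Both knockdown libraries were above the control libraries, but the log2(fold change) of 0.28 (SE 0.15, 95% interval -0.057 to 0.61, adjusted p 0.28) was not called. LDHB had 729 and 850.3 CPM in control and 714 and 845 CPM in knockdown libraries, with a log2(fold change) of -0.019. PDK1 and PDK3 inhibit pyruvate dehydrogenase. PDK1 was at 20.2 and 20.9 CPM in control and 19.9 and 19.8 CPM in knockdown libraries, and PDK3 was at 2.25 and 2.15 CPM against 1.75 and 1.74 CPM. These are log2(fold change) values of -0.050 for PDK1 and -0.34 for PDK3, on 35 to 54 counts per library for the latter. None of these 4 genes was called by edgeR or DESeq2, and none had an unadjusted p below 0.05. Reads of LDHA could in part be assigned to its 6 annotated pseudogenes, which held 2.80% as many counts as LDHA.

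HIF1A and EPAS1 encode the oxygen-regulated HIF alpha subunits. EPAS1 (ENSG00000116016, chr2:46293667-46386697, plus strand) was at 142 and 167 CPM in control and at 93.0 and 111 CPM in knockdown libraries. The higher knockdown library stayed below the lower control library. This was a log2(fold change) of -0.60 (SE 0.14, 95% interval -0.92 to -0.29, adjusted p 0.023), or 1.52-fold lower. HIF1A had 364 and 356 CPM in control and 318 and 348 CPM in knockdown libraries, a small separation with a log2(fold change) of -0.11 (SE 0.13, 95% interval -0.41 to 0.19, adjusted p 0.65). Of the exon bases of HIF1A, 11.3% overlap other genes, among them the antisense gene HIF1A-AS3. EGLN1, the prolyl hydroxylase that marks HIF alpha subunits when oxygen is present, had 70.5 and 76.0 CPM in control and 63.4 and 72.3 CPM in knockdown libraries, with overlapping groups and a log2(fold change) of -0.11.

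VEGFA (ENSG00000112715, chr6:43770184-43786487, plus strand), the main angiogenic growth factor of the HIF response, was at 214 and 163 CPM in control and at 303 and 316 CPM in knockdown libraries. The control libraries lay further apart than the knockdown libraries, and both were below them. The log2(fold change) was 0.71 (SE 0.15, 95% interval 0.37 to 1.06, adjusted p 0.018 by edgeR), or 1.64-fold higher. ADM, the vasodilator peptide adrenomedullin and also a HIF target, had 94.9 and 108 CPM in control and 86.1 and 107 CPM in knockdown libraries, with overlapping groups and a log2(fold change) of -0.074. Of the other VEGF ligands and receptors, 6 of 9 were tested and none was called by edgeR or DESeq2 or had an unadjusted p below 0.05. Their log2(fold change) ran from -0.34 to 0.27 with a median of 0.0055.

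P4HA1 and P4HA2 are the catalytic subunits of the prolyl hydroxylase that stabilizes collagen. P4HA1 (ENSG00000122884, chr10:73007217-73096974, minus strand) had 59.0 and 47.2 CPM in control and 38.2 and 35.1 CPM in knockdown libraries. Every knockdown value was below every control value, and the log2(fold change) was -0.53 (SE 0.14, 95% interval -0.84 to -0.22, adjusted p 0.038), or 1.45-fold lower. With genes restricted to a mean of at least 100 counts its adjusted p was 0.054. P4HA2 had 45.8 and 38.7 CPM in control and 49.3 and 46.0 CPM in knockdown libraries, with a log2(fold change) of 0.17, and was not called.

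BNIP3 and BNIP3L are receptors that mark mitochondria for removal. BNIP3 had 46.6 and 46.9 CPM in control and 52.2 and 56.6 CPM in knockdown libraries, and BNIP3L had 198 and 235 CPM in control and 149 and 190.3 CPM in knockdown libraries. The groups of each gene did not overlap, in opposite directions, and neither was called (log2(fold change) 0.22 and -0.35). Of the remaining HIF targets, NDRG1, a stress-induced growth regulator, had 10.9 and 14.5 CPM in control and 8.30 and 11.5 CPM in knockdown libraries. Its groups overlapped, with a log2(fold change) of -0.36 (SE 0.20, 95% interval -0.82 to 0.094, adjusted p 0.30). ANKRD37 had 1.84 and 1.32 CPM in control and 0.991 and 0.645 CPM in knockdown libraries, from 13 to 44 counts. The log2(fold change) of -0.94 was large but imprecise (SE 0.37, adjusted p 0.14), and 40.3% of its exon bases overlap other genes, UFSP2 among them.

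Related genes were next compared within each library, where differences in library size cancel. Of 11 such ratios, 9 did not overlap between the groups. Of these 9, 6 hold a gene called above, and among all single genes tested 27.7% (higher) and 26.6% (lower) were likewise without overlap, so the count itself is only a description. The ratio of PFKL to PFKM, in CPM per kb, was 0.458 and 0.461 in control and 1.17 and 1.03 in knockdown libraries. On the log2 scale it shifted by 1.25, with an SD between replicates of 0.0071 in control and 0.13 in knockdown cells. SLC2A3 relative to SLC2A1 was 0.130 and 0.126 in control and 0.0526 and 0.0510 in knockdown libraries, although both transporters varied between the control replicates. P4HA1 relative to P4HA2 was 4.21 and 3.99 in control and at most 2.54 in either knockdown library. In counts, without the length scaling, this ratio was 1.29 and 1.22 in control and 0.775 and 0.763 in knockdown libraries. The size of each ratio thus depends on the exon lengths used, while its shift on the log2 scale does not. For EPAS1 relative to HIF1A the values were 0.277 and 0.332 against 0.207 and 0.225, and for LDHA relative to LDHB they were 0.483 and 0.431 against 0.573 and 0.546. PFKM to PFKP and PFKFB3 to PFKFB4 overlapped. With 2 libraries per group the smallest exact two-sided permutation p is 0.333, so these ratios are given without a test.

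**Figure D3:**
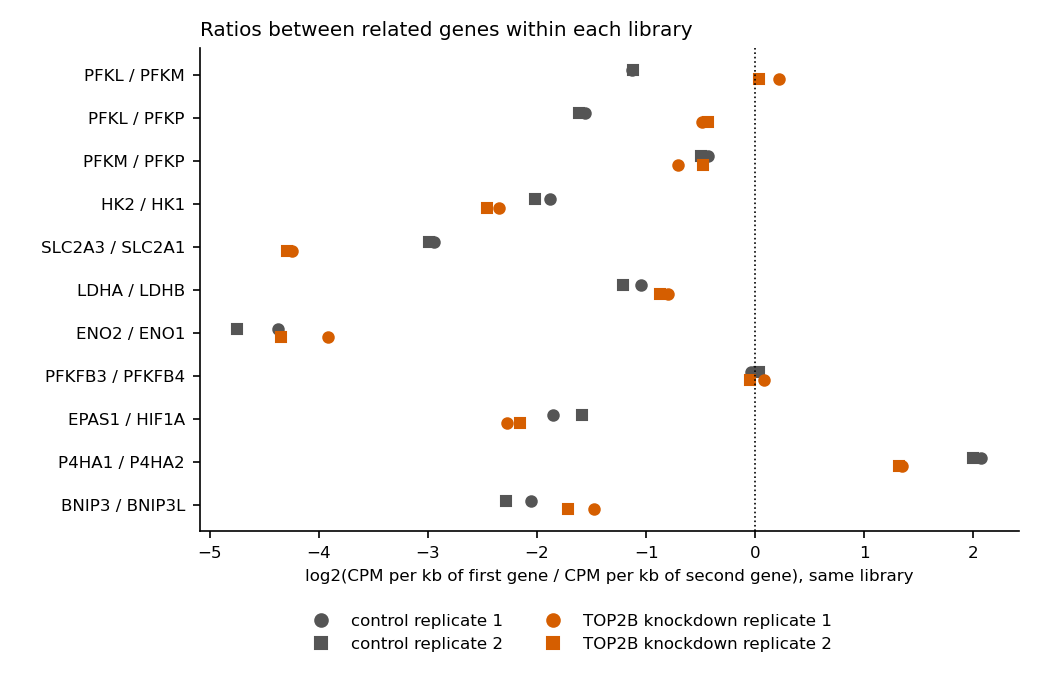
Ratios between related genes within each of the 4 libraries, as log2 of CPM per kb of the first gene over CPM per kb of the second, with control in grey and TOP2B knockdown in orange. PFKL over PFKM moves to the right by 1.25 and SLC2A3 over SLC2A1 to the left by 1.30, and 9 of the 11 ratios do not overlap between groups.

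With 2 replicates per group, each call was also computed without each library, with the lone library assumed to vary like the other group. PFKL and SLC2A3 were called in all 4 fits, with a log2(fold change) of 1.06 to 1.15 for PFKL and of -1.34 to -0.86 for SLC2A3. VEGFA was called in 3 fits and had a log2(fold change) of 0.53 (adjusted p 0.16) without control replicate 2. EPAS1 was not called without control replicate 2 (-0.48, adjusted p 0.12) or without knockdown replicate 1 (-0.48, adjusted p 0.17). P4HA1 was not called without control replicate 1 (-0.36, adjusted p 0.24) or without knockdown replicate 2 (-0.49, adjusted p 0.11). For HK2 the value hardly moved (-0.51 to -0.49), but the adjusted p was between 0.074 and 0.11 whichever library was left out.

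**Figure D4:**
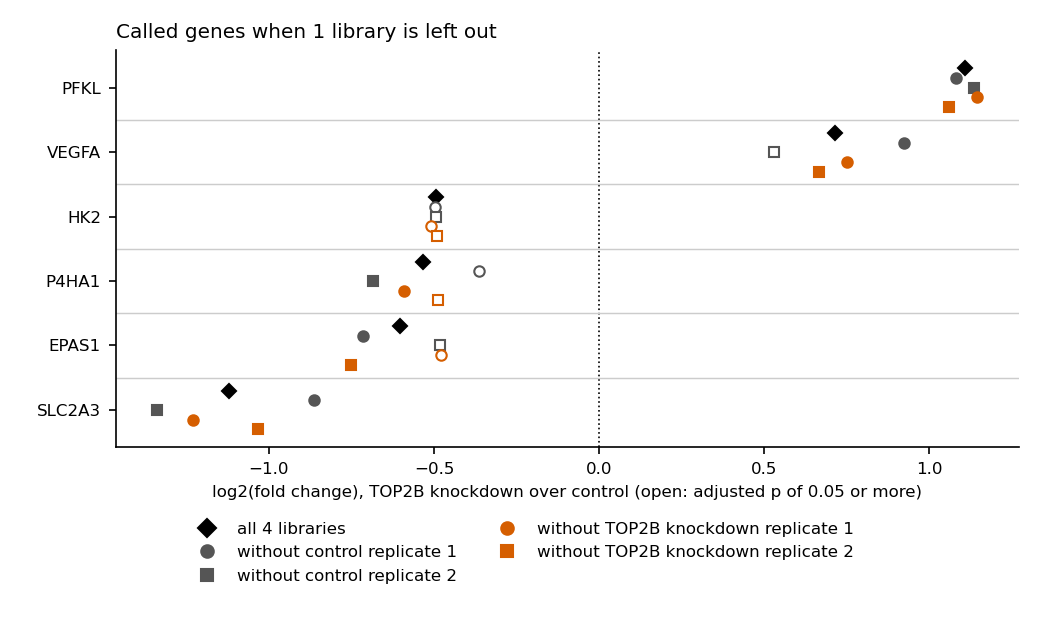
Log2(fold change) of the 6 called genes with all 4 libraries (black diamonds) and without each control (grey) or knockdown (orange) replicate. Filled points have an adjusted p below 0.05 and open points do not, and PFKL and SLC2A3 are filled throughout while HK2 is open in all 4 reduced fits.

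HIF binds DNA at a short core whose letters are ACGTG or GCGTG. Upstream sequence from RefSeq (GRCh38.p14) was matched for 33 of the 37 genes, and VEGFA, SLC2A3, BNIP3L and NDRG1 were not matched. On either strand of the 250 bases before the annotated start, 22 of the 30 matched genes that were tested held at least 1 core (73.3%), against 58.3% of the upstream windows of 11037 tested genes. The median log2(fold change) was -0.11 for the 22 genes with a core and -0.081 for the 8 without. For the 11037 tested genes the medians were -0.0069 with a core and -0.017 without, in the opposite order. A core is a description of these letters and not a site of HIF binding. The stretches around the cores of the 4 matched genes that were called, and of LDHA and BNIP3 with 5 and 6 cores, show how differently they are arranged (2 of the 3 cores of HK2 and 3 of the 5 of LDHA are shown). Capitals mark the cores (CACGT or CACGC where a core is on the opposite strand), and adjoining cores can share bases. Each sequence reads 5′ to 3′ on the strand of the gene.
PFKL, chr21:44299869-44299913, plus strand, position -184 to -140 from the start: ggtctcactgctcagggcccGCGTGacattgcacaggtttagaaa
HK2, chr2:74834052-74834103, plus strand, position -75 to -24 from the start: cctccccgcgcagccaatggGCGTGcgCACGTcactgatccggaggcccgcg
EPAS1, chr2:46297270-46297314, plus strand, position -137 to -93 from the start: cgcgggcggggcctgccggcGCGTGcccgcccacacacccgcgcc
P4HA1, chr10:73096928-73096972, minus strand, position -106 to -62 from the start: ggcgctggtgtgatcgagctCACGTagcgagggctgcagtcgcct
LDHA, chr11:18394456-18394514, plus strand, position -107 to -49 from the start: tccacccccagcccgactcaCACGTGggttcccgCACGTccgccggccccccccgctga
BNIP3, chr10:131982003-131982086, minus strand, position -163 to -80 from the start: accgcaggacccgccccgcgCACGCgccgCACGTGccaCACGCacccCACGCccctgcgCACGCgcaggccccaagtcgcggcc

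All 6 stretches lie upstream of the RefSeq start, and those of EPAS1 and P4HA1 fall inside the gene as GENCODE draws it, because other transcripts begin further upstream. PFKL, which rose, and EPAS1 and P4HA1, which fell, each held 1 core in 250 bases, and HK2, which fell, held 3. LDHA and BNIP3, with the most cores among those shown, were not called. In the 3′ UTR, the 6-base word GCAACC occurred in 9 of the 34 genes tested (26.5%), against 23.6% of 12385 tested genes whose 3′ UTR had 50 bases or more. It was in none of the 6 called genes. The 9 genes with the word had a median log2(fold change) of 0.14 and the other 25 of -0.17, while for all genes tested the medians were 0.058 with and -0.038 without it.

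Other genes of glucose and pyruvate metabolism, not on the list above, were examined in the same way. Of 29 tested, 3 (10.3%) were called higher and 1 (3.45%) lower, near the 6.66% and 4.18% of all genes tested, with a median log2(fold change) of -0.10. PCK2, which makes phosphoenolpyruvate in mitochondria, rose by 1.20 on the log2 scale (10.3 and 8.82 CPM in control, 22.2 and 21.8 CPM in knockdown, adjusted p 0.0017). The glucose transporter SLC2A10 rose by 0.76 (adjusted p 0.019) and PFKFB2, another regulator of phosphofructokinase, by 0.48 (adjusted p 0.038). PDP1, the phosphatase that reactivates pyruvate dehydrogenase, fell by 0.64 (235 and 237 CPM in control, 139.8 and 164 CPM in knockdown, adjusted p 0.015).

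Of 50 other tested genes of the HIF pathway and hypoxia response, 4 (8%) were called higher and 4 (8%) lower, against 6.66% and 4.18% of all genes tested, with a median of -0.11. As a group they are described, and nothing is read from counts this close to the background. The largest rise among them was that of HIF1A-AS3, an antisense gene at the HIF1A locus (log2(fold change) 1.36, adjusted p 0.0060), from 2.09 and 1.89 CPM to 4.77 and 5.45 CPM. Other genes overlap 5.93% of the exon bases of HIF1A-AS3. The tag on the columns and the stated methods leave unclear whether strand was used in the counting. If it was not, reads of HIF1A-AS3 cannot be told apart from those of HIF1A where the genes overlap. The demethylase KDM4B (0.62, adjusted p 0.017), the repressor BHLHE40 (0.54, adjusted p 0.017) and the lipid droplet protein PLIN2 (0.52, adjusted p 0.0499) also rose. DDIT4, an inhibitor of mTOR signalling, fell by 1.00 (7.98 and 6.93 CPM in control, 3.92 and 3.52 CPM in knockdown, adjusted p 0.012). The lipoprotein receptor VLDLR (-0.69, adjusted p 0.028), the collagen crosslinker LOX (-0.67, adjusted p 0.024) and the glycogen branching enzyme GBE1 (-0.51, adjusted p 0.030) fell as well. Of the 12 genes called in these lists, PCK2, DDIT4 and HIF1A-AS3 were called in all 4 fits without 1 library. The others lost the call in at least 1 fit, and PFKFB2 and GBE1 in all 4. Among MYC and its cofactors none of 6 tested genes was called by edgeR or DESeq2 or had an unadjusted p below 0.05, with a median of -0.086.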

How the data were processed

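RNA-seq libraries of 2 control and 2 TOP2B knockdown replicates were analysed. Per the labels and the methods of the study, the authors read 65-base single-end TruSeq libraries, checked them with FastQC 0.11.6, aligned them to GRCh38 with STAR 2.5.4a and counted reads per gene with Gencode v24. The deposited columns are tagged as stranded and paired-end, which conflicts with the single-end reads of the labels and methods. The methods give an unstranded setting for the wig output of STAR, and the strand setting used to count is not given in the sources used here. The deposited values are raw counts for 60725 genes, without normalization, and 4 columns that repeat the others were not used. Genes that reached 10 counts in 2 or more libraries were tested with edgeR 4.0.16 in R 4.3.3 (glmQLFit and glmQLFTest, TMM, a model with condition alone, Benjamini-Hochberg adjustment over 15356 genes, called at an adjusted p below 0.05). CPM values are scaled by TMM. The SE and p-values of edgeR rest on the spread between these replicates only, with that of each gene moderated by the spread of all genes tested. The steps were checked on simulated data. Gene positions, exon lengths, exon overlap and 3′ UTRs came from GENCODE v44 of the same build, which held 98.9% of the tested genes. Of several RefSeq starts of a gene, the one nearest the start of the Ensembl canonical transcript was used. The members and the further gene lists were chosen with earlier results of these data known. Every member that passed the filter is named, with full statistics for those called and for SLC2A1, LDHA, HIF1A and NDRG1. Of other genes, TOP2B and the called genes of the glycolysis and HIF lists are named. Cell type markers (RPE65, TYR, TTR, RLBP1, MITF, OTX2, KRT8, KRT18, TIE1 and CDH5) and the proliferation genes are named as a check. They were chosen after their values were seen. Alternatives were DESeq2 1.42.0 (size factors and Wald test), library sizes alone, other count filters, the replicate number as a block, and fits without each library.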

Additional observations from a re-analysis of the deposited data

How the results depend on the processing

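PFKL and SLC2A3 kept their call under every alternative run. With the size factors of DESeq2, with library sizes alone, with the DESeq2 test and without a filter, 2 of the listed genes were called higher and 4 to 5 lower. Over all genes, these fits called 913 to 1358 higher and 625 to 985 lower. A filter at a mean of 100 counts left 3 lower (P4HA1 lost) and 2 higher genes among the other HIF genes, and no filter gave 3 lower genes among the other glycolysis genes. In the fits without 1 library, TOP2B had a log2(fold change) of -3.48 to -3.30 and the median of the listed genes one of -0.24 to -0.077. Signs changed only in these fits, for genes near 0: SLC2A1 (-0.013 to 0.41), HK1 (-0.11 to 0.029), GPI (-0.0053 to 0.30), PFKP (-0.077 to 0.038), ALDOC (-0.25 to 0.043), LDHB (-0.16 to 0.10) and ADM (-0.26 to 0.080). The causes were not tested.

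Replicates of the 2 conditions share numbers, but nothing states that a number marks a shared culture or day. The difference between replicates correlated at 0.479 across 15356 genes between the conditions, which is 2 pairs only. With the replicate number as a block, 3440 of the 15356 genes tested were called higher and 3346 lower, against 1023 and 642 without it. Calls are thus common in this fit, and they rest on a pairing that no source states. It called 8 of the 34 listed genes higher and 15 lower, with 7 and 12 of the 29 other glycolysis genes and 12 and 19 of the 50 other HIF genes. All 6 payoff enzymes were called in it (5 lower, 1 higher, for example PKM at an adjusted p of 1.9e-06, GAPDH at 3.0e-06 and ENO1 at 0.0032 by edgeR). In 8 abundant genes (ALDOA, TPI1, GAPDH, PGK1, PGAM1, ENO1, PKM and LDHB) replicate 2 exceeded replicate 1 in both conditions, by 0.18 to 0.27 in control and 0.14 to 0.25 in knockdown cells on the log2 scale. These 8 were picked, and SLC2A1, also abundant, went the other way (-0.43 and -0.17). Replicate 2 was the higher in both conditions for 20 of the 34 listed genes and replicate 1 for 8. For all 15356 genes tested these numbers were 5691 and 5974. All genes with at least 1 count gave 1358 higher and 985 lower, and a mean of 100 counts 825 and 447. ALDOC, PDK3 and ANKRD37 rest on 13 to 54 counts per library, which limits what 2 replicates can show for them.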
